A study of Mus musculus with 2 samples.

Results

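RNA of 10 genes of iron storage, iron uptake and export, iron sensing and heme breakdown was read in sorted cells labelled as mammary gland basal cells. The 10 genes were listed by name (Fth1, Ftl1, Tfrc, Slc40a1, Slc11a2, Hmox1, Ireb2, Trf, Lcn2 and Ltf), under a rule that uses no measured value, out of 54438 genes in all. The choice was made with earlier results of these data known. The 10 genes hold 62 annotated transcripts, of which 14 had a read in at least 1 library. Flow cytometry was used to sort the cells from mammary glands of 8 week old wild type C57BL/6 mice, and their RNA went through Smart-seq II, which copies whole transcripts into cDNA from very little RNA. The study concerns Pd-l1, a ligand of the T cell receptor Pd-1, and describes basal cells that carry it or lack it. It holds 2 libraries, titled W1 and W2, whose other labels are the same, so neither could be placed in a Pd-l1 class and no difference between them can be read as one of Pd-l1. No source used here gives the antibodies, the gates or how many mice were used. There are no replicates, and the values below describe 2 single libraries side by side without a test. In such bulk libraries fewer cells of a type and less RNA per cell cannot be told apart.

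Cells take up most iron as transferrin (Trf) bound to transferrin receptor 1 (Tfrc), move it across membranes through the metal transporter DMT1 (Slc11a2), store it in ferritin shells built of heavy (Fth1) and light (Ftl1) chains, and release it through ferroportin (Slc40a1). Heme oxygenase 1 (Hmox1) breaks heme down and frees its iron. Iron regulatory proteins, among them Ireb2, bind hairpins called iron-responsive elements in messenger RNAs. They block translation where the hairpin lies in a 5′ UTR and stabilise the message where several lie in a 3′ UTR. Mammary epithelium is also known for secreted proteins that bind iron or iron carriers, including lactoferrin (Ltf) and lipocalin 2 (Lcn2).

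The hairpins are shown first because they tie 5 of the 10 genes together and because 1 of them is in only 1 of the 2 transcripts of Slc11a2 that were read. Each line gives 30 bases of the sense strand from the GENCODE M21 transcripts (GRCm38), with the CAGTGN loop in capitals. The search asked for CNNNNNCAGTGN, with A, C or T as the last base of the loop, followed by 5 bases that pair with the 5 before the loop, with G-T pairs allowed. Slc11a2-205 matched only when 1 unpaired base was allowed in the stem after the loop. The sense strand alone was searched.
Fth1-201: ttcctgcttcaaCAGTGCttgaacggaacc
Ftl1-201: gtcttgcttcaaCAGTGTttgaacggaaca
Ftl1-ps1-202: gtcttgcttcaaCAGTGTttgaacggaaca
Slc40a1-201: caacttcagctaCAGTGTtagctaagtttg
Tfrc-201 a: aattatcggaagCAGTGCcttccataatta
Tfrc-201 b: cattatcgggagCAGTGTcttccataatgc
Tfrc-201 c: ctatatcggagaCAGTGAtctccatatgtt
Tfrc-201 d: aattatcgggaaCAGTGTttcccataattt
Slc11a2-205: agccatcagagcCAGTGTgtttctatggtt

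The elements of Fth1 (chr19:9982732-9982761, plus strand), Ftl1 (chr7:45459778-45459807, minus strand) and Slc40a1 (chr1:45925464-45925493, minus strand) lie in the 5′ UTR of the coding transcript. The 4 of Tfrc lie in the 3′ UTR of Tfrc-201, between positions 32631219 and 32631739 of chromosome 16. The element of Slc11a2 lies in the 3′ UTR of Slc11a2-205 (chr15:100395152-100395181, minus strand). Ftl1-ps1, listed as a protein-coding copy of the ferritin light chain gene on chromosome 13, carries the same 30 letters as Ftl1 (chr13:74406428-74406457, plus strand). A fully paired match was held by 0.725% of 57678 protein-coding transcripts, and a match under either rule by 2.49%. The fully paired elements of Ftl1, Tfrc and Slc40a1 are also in Ftl1-202, Tfrc-204, Slc40a1-202 and Slc40a1-208. Under the looser rule Slc40a1-204, a transcript without a coding part, also matched. No transcript of Hmox1, Ireb2, Trf, Lcn2 or Ltf matched, which says only that these letters are not in them. A match is a description of the sequence, and none of the values below measures translation.

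How much of a gene could be counted differed between the 10 genes. The total of counted reads, worked out from the smallest step of each library's FPKM values, was 3055824 in W1 and 3800011 in W2. The reads recovered for single matched transcripts summed to 3065847 and 3826939. A transcript's 50-mers (runs of 50 bases) were compared with those of all listed transcripts on both strands, and those found in no other transcript are called unique here. Fth1-201 had 822 unique 50-mers of 880, Ireb2-201 had 5112 of 5721, Slc40a1-201 had 2537 of 3321 and Hmox1-201 had 975 of 1520. Slc11a2-201 had 1257 of 2976 and Ltf-201 had 843 of 2694. Trf-201 had 367 of 2522, Tfrc-201 had 181 of 4841, Lcn2-201 had 38 of 866 and Ftl1-201 had none of 919. A 0 in Tfrc, Lcn2 or Ftl1 therefore carries less information than a 0 in Slc40a1.

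**Figure D1:**
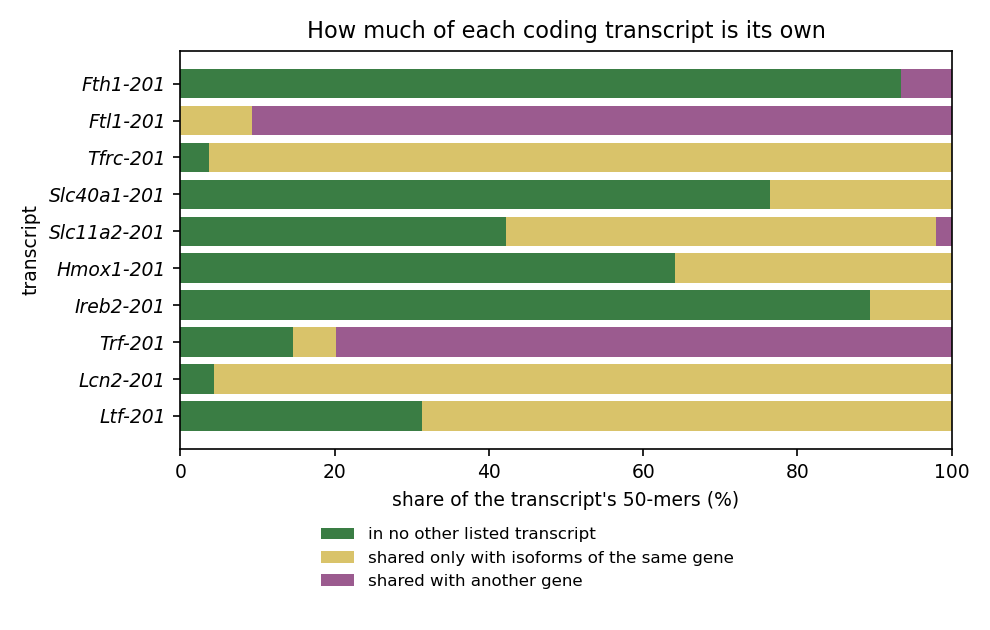
The horizontal axis gives the share of 50-mers, in percent, of the first coding transcript of each gene that is in no other listed transcript (green), shared only with isoforms of the same gene (yellow) or shared with another gene (purple). Fth1-201 is 93.4% unique, Ftl1-201 has no unique part, and most of Trf-201 is shared with another gene.

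The 2 libraries held different cell type markers, and all results below stand beside that. All 8 compared genes of 10 endothelial markers were higher in W1 (summed level 4710 and 7.07 TPM in W1 and W2), and 8 of the 10 had 0 reads in W2. All 9 compared genes of 10 basal and myoepithelial markers were higher in W2 (54.7 and 36800 TPM), and Krt5, a keratin that defines basal cells, had 0 reads in W1. Trp63, another basal marker, had 0 reads in both libraries. W1 therefore goes against its basal cell label in these markers, and with 1 library left no comparison can be made without it. Of 8 compared luminal genes 7 were higher in W2 (7.76 and 4350 TPM). All 6 compared fibroblast genes were higher in W2 (3.19 and 206 TPM). Macrophage markers summed to 68.6 and 11.0 TPM, with Adgre1, Cd163 and Timd4 at 0 reads in both. Of 6 compared macrophage genes 4 were higher in W1, among them Lyz2 at 46.6 and 0 TPM, and 2 lay within 2-fold. The lists of other leukocyte and adipocyte markers had 1 compared gene each, Cd79a (145 and 0 reads) and Fabp4 (91 and 0 reads), both higher in W1. All 8 erythroid markers, the globin genes among them, were at 0 reads in both libraries, and neutrophil markers summed to 0.871 and 0.811 TPM with 6 of 8 at 0. The 1 TPM filter was passed through W1 alone by 6 of the 8 endothelial genes and through W2 alone by 6 of the 9 basal ones. What part these markers have in the values of the iron genes was not tested.

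A level of 1 TPM in either library was asked for before 2 values were compared, and 7 of the 10 genes reached it. Hmox1, Slc11a2 and Lcn2 were 2-fold or more higher in W2, Ireb2 was 2-fold or more higher in W1, and Fth1, Ftl1 and Trf lay within 2-fold. Lcn2 passed the filter only through W2, so its place among the differing genes is set by the filter. Among all 12586 genes compared, the same rule put 34.7% higher in W1, 32.9% higher in W2 and so 67.6% apart in either direction, so 4 of 7 is near the background. The fold was taken on TPM + 1, which understates the ratio of low genes. The ratios given below are of reads scaled to TPM, except those of the ferritin copies and their sum, which are of TPM. The 2 kinds of ratio can differ where transcripts differ in length. All intervals are exact 95% Clopper-Pearson intervals on reads that cover counting error only. Tfrc, Slc40a1 and Ltf stood under 1 TPM in both libraries.

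**Figure D2:**
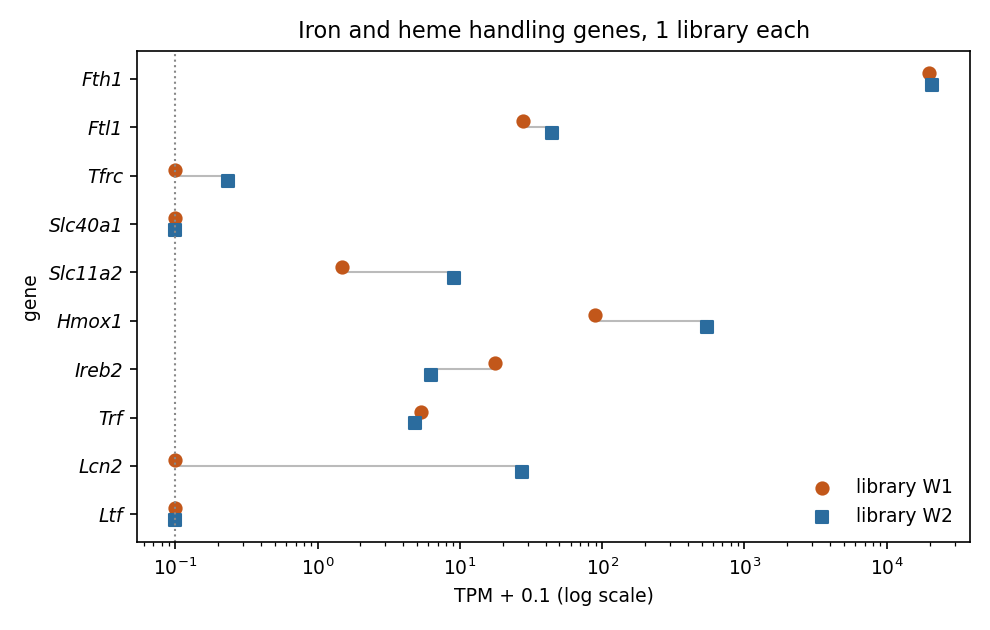
Level of each of the 10 genes in W1 (circles) and W2 (squares), as TPM + 0.1 on a log axis, with 1 library per point and the dotted line at 0 TPM. Fth1 lies far right in both, Hmox1, Slc11a2 and Lcn2 lie to the right in W2, and Slc40a1 and Ltf are at 0 in both.

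Fth1, the heavy chain that oxidises iron as it enters ferritin, was by listed level the highest of the 10 genes and nearly equal in the libraries. The gene (ENSMUSG00000024661.7, chr19:9980598-9985098, plus strand) has 1 listed transcript. It stood at 19961 TPM in W1, from 56187 reads, and at 20759 TPM in W2, from 58831 reads. The ratio was 1.04 toward W2 (1.03 to 1.05). Fth1 ranked 4 among all genes by listed TPM in both libraries, an order that uneven counting also shapes. On the scale of FPKM Fth1 was the higher in W1 (19792 and 16665 FPKM), so the direction of this small difference depends on the scale. Of its 50-mers 58 are shared with the listed gene Gm6977, which held 13 and 8 reads. The processed pseudogene Fth-ps2 held 22 reads in W1 and 0 in W2.

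Ftl1, the light chain that favours the mineral core of ferritin, had few reads of its own. The gene (ENSMUSG00000050708.16, chr7:45457944-45459884, minus strand) stood at 27.8 TPM in W1, from 52 reads, and at 44.5 TPM in W2, from 84 reads. The ratio was 1.60 toward W2 (1.12 to 2.31). Nearly all of these reads were listed under Ftl1-206, a transcript with a retained intron, with 49 reads in W1 and 78 in W2. Of its 116 unique 50-mers, 114 are centred in an intron of Ftl1-201. The coding transcript Ftl1-201 itself held 3 and 2 reads, and with coding transcripts alone the log2 ratio of TPM + 1 was 0.27, toward W1.

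Far more reads were listed under genes that share sequence with the light chain message than under Ftl1. Of the 919 50-mers of Ftl1-201, 675 are also in Ftl1-ps1, 318 in Gm15590, 307 in Gm10252 and 273 in Ftl2-ps. Ftl1-ps1-202 aligned with Ftl1-201 over 910 bases without a gap and differed at 4 of them, 2 of these in the 549 coding bases. The following 90 coding bases of Ftl1-201 (chr7:45458155-45458244, minus strand) and the matching stretch of Ftl1-ps1-202 (chr13:74407018-74407107, plus strand) show both coding differences as capitals, because they are what separates the gene from its copy there.
Ftl1-201: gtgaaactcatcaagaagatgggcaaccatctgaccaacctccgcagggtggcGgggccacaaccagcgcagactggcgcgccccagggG
Ftl1-ps1-202: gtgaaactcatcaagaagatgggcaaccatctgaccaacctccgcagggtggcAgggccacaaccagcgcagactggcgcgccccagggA

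Ftl1-ps1 held 3894 reads in W1 and 9730 in W2, at 1370 and 3400 TPM. Gm10252 held 7520 and 15818 reads, at 2983 and 6232 TPM. It is a gene model on the opposite strand of Ftl1 (chr7:45459469-45460300, plus strand), and 355 of its 832 bases lie over exons of Ftl1-201. Gm47428, which lies in the same way over Ftl1-ps1 with 329 of 661 bases, held 2960 and 6655 reads. Of the 783 50-mers of Gm10252 476 are unique to it, and of the 612 of Gm47428 320 are. Where the reads of these 2 gene models fell along them is not known. Ftl2-ps held 118 and 359 reads, Gm15590 held 81 and 165, Ftl1-ps2 held 4 and 3, and Gm12164 held none in either library. The library kit keeps strand, per the labels, but no source used here says whether counting used it, so reads of these genes and of Ftl1 cannot be told apart.

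Ftl1 took 0.36% of the reads of these 8 genes in W1 and 0.26% in W2. Their sum, chosen after their values were seen, was 5980 TPM in W1 and 13290 TPM in W2. The ratio of these TPM was 2.22 toward W2, with an interval taken from the reads (2.18 to 2.27). TPM was 1.00852 times FPKM in W1 and 1.24567 times in W2, so ratios toward W2 are smaller on FPKM. Of the 8 genes, 6 were higher in W2, Ftl1-ps2 at 4 and 3 reads was not, and Gm12164 had no reads. The 4 with the most reads had ratios of 2.48 (Ftl1-ps1), 2.09 (Gm10252), 2.23 (Gm47428) and 3.02 (Ftl2-ps). The ratio toward W2 was thus 1.04 for Fth1, 1.6 for Ftl1 as listed and 2.22 for the summed group. The sum includes Gm10252 and Gm47428, whose sequence is only in part that of the light chain. It therefore does not give the level of light chain RNA.

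**Figure D3:**
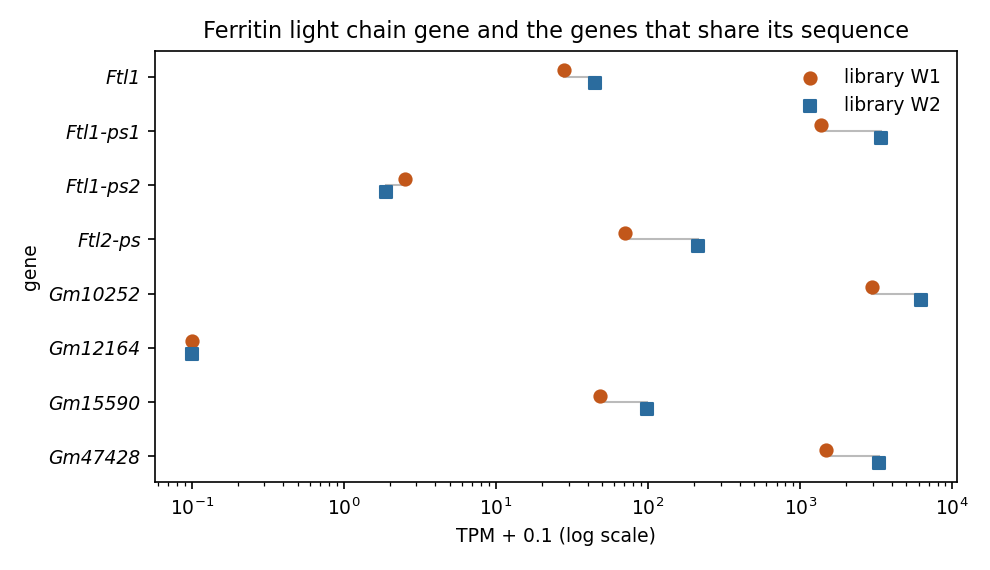
TPM + 0.1 on a log axis for Ftl1 and the 7 genes that share at least 75 50-mers with Ftl1-201, in W1 (circles) and W2 (squares). Gm10252, Gm47428 and Ftl1-ps1 lie above 1000 TPM in both libraries and are higher in W2, while Ftl1 is under 50 TPM.

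On the uptake side, Trf was read at like levels and Tfrc almost not at all. Trf, the carrier of iron in plasma and milk (ENSMUSG00000032554.15, chr9:103204001-103230444, minus strand), stood at 5.26 TPM in W1 and 4.72 TPM in W2, from 41 and 37 reads. The ratio of 1.12 toward W1 had an interval from 0.698 to 1.79, so no difference was detectable at this depth. All these reads were on Trf-201, of whose 2522 50-mers 2012 are shared with Gm20425, a gene model on the same strand that held 0 reads in both libraries. Tfrc (ENSMUSG00000022797.16, chr16:32608920-32632794, plus strand) had 0 reads in W1 and 2 in W2, both on Tfrc-201. Its iron-responsive elements lie where the transcript shares its sequence with Tfrc-204, so 0 unique 50-mers cover them. The 2 reads give 0.134 TPM, and a count of 0 allows up to 0.202 TPM on Tfrc-201 in W1. With so few unique 50-mers, low values of Tfrc do not show that the receptor was silent.

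Slc11a2, which carries ferrous iron out of endosomes, was higher in W2. The gene (ENSMUSG00000023030.16, chr15:100387898-100425072, minus strand) stood at 1.39 TPM in W1, from 14 reads, and at 9.05 TPM in W2, from 87 reads. The ratio was 6.17 toward W2 (3.49 to 11.8). Gm5475 overlaps Slc11a2 on the other strand.

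The reads of Slc11a2 fell on 2 transcripts with different 3′ ends. Slc11a2-201, in which the search found no iron-responsive element, held 10 reads in W1 and 76 in W2, a ratio of 7.55 (3.89 to 16.4). Of its 1257 unique 50-mers 1150 are in its own 3′ UTR. Slc11a2-205, whose 3′ UTR holds the element shown above, held 4 and 11 reads, a ratio of 2.73 with an interval from 0.809 to 11.8. Slc11a2-205 therefore took 28.6% of the gene's reads in W1 (8.4 to 58.1) and 12.6% in W2 (6.5 to 21.5), and these intervals overlap. The unique-region density, defined as reads per 1000 unique 50-mers and 1000000 counted reads, allows levels to be set beside each other. Slc11a2-201 stood at 2.60 and 15.9, and Slc11a2-205 at 0.484 and 1.07. The transcript without the element was thus the higher of the pair in both libraries.

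Slc40a1, the only known exporter of iron from cells (ENSMUSG00000025993.10, chr1:45908068-45926523, minus strand), had 0 reads in both libraries on all 8 of its transcripts. Unlike Tfrc, it has a coding transcript that is mostly unique. On Slc40a1-201 a count of 0 allows up to 0.294 TPM in W1 and 0.292 TPM in W2. In unique-region density it allows up to 0.387 and 0.311.

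Ireb2, the iron regulatory protein that is degraded when iron is plentiful, was higher in W1. The gene (ENSMUSG00000032293.8, chr9:54863789-54912530, plus strand) stood at 17.4 TPM in W1, from 279 reads, and at 6.13 TPM in W2, from 107 reads. The ratio was 2.63 toward W1 (2.09 to 3.31). The coding transcript Ireb2-201 held 223 and 105 reads, a ratio of 2.14 (1.69 to 2.72). With coding transcripts alone the log2 ratio of TPM + 1 was 0.98, just under the 2-fold rule. The retained-intron transcript Ireb2-202 held 56 reads in W1 and 2 in W2. It took 20.1% of the gene's reads in W1 (15.5 to 25.3) and 1.9% in W2 (0.2 to 6.6). These intervals cover counting error only. The transcript was picked after its reads were seen. The share of such reads over all genes was not worked out, so the difference cannot be called particular to Ireb2. Of the 3724 unique 50-mers of Ireb2-202, 3630 are centred in an intron of Ireb2-201.

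Hmox1, the inducible heme oxygenase, was higher in W2 and had the second most reads of the 10 genes. The gene (ENSMUSG00000005413.8, chr8:75093621-75100589, plus strand) stood at 88.3 TPM in W1, from 420 reads, and at 549 TPM in W2, from 2627 reads. The ratio was 6.21 toward W2 (5.60 to 6.90). All reads were on the coding transcript Hmox1-201, and the retained-intron transcript Hmox1-202 had none. Its unique-region density was 141 and 709. Hmox2, the constitutive heme oxygenase, stood at 8.39 and 8.51 TPM, from 44 and 41 reads, and its ratio of 1.08 toward W1 had an interval from 0.690 to 1.70. Of the 50-mers of Hmox2 19.5% are in 1 transcript alone, against 67.9% for Hmox1, so the levels of the 2 genes cannot be ranked by TPM.

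Lcn2, which binds iron-loaded siderophores, was read in W2 and not in W1. The gene (ENSMUSG00000026822.14, chr2:32384633-32388252, minus strand) had 0 reads in W1 and 112 in W2, at 27.4 TPM. With a floor of 3 reads in W1 the level in W2 was at least 37.1-fold higher. None of these reads were on the coding transcripts. Lcn2-204, a transcript without a coding part, held 108 of them, and 322 of its 346 unique 50-mers are centred in an intron of Lcn2-201. The other 4 reads were on the retained-intron transcript Lcn2-203. For Lcn2-201 a count of 0 allows up to 1.08 and 1.07 TPM, yet its 38 unique 50-mers make that a weak limit for the spliced message: the limits in unique-region density are 25.8 and 20.8.

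Ltf, the iron-binding protein of milk and of neutrophil granules (ENSMUSG00000032496.7, chr9:111019271-111042767, plus strand), had 0 reads in both libraries on all 12 of its transcripts. On Ltf-201 a count of 0 allows up to 0.361 TPM in W1 and 0.359 TPM in W2.

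**Figure D4:**
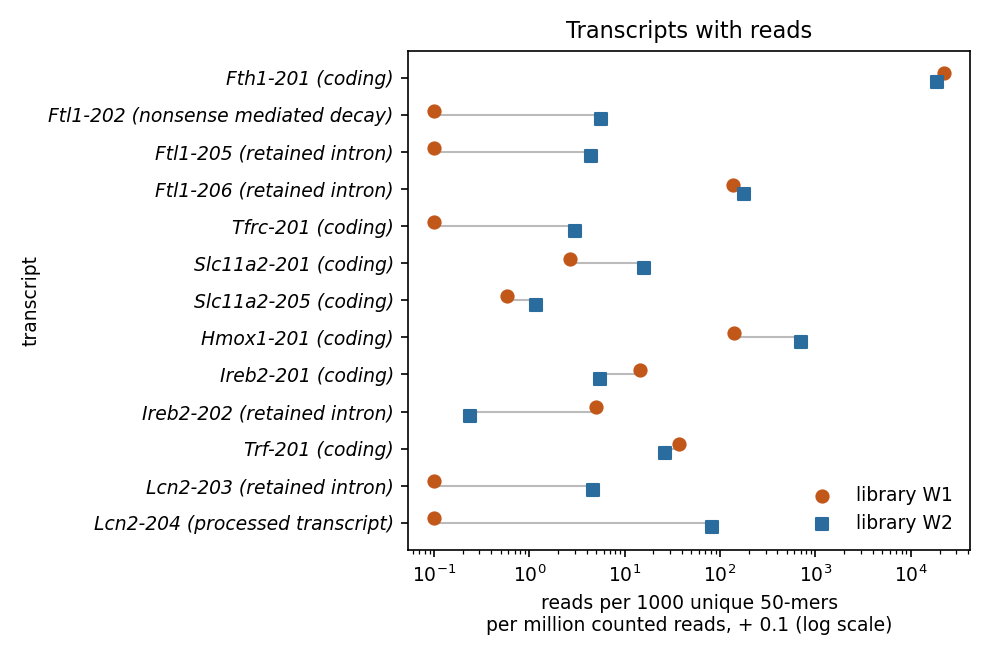
Unique-region density (reads per 1000 unique 50-mers and 1000000 counted reads), + 0.1 on a log axis, for the 13 transcripts of the 10 genes that had a read and a unique 50-mer, in W1 (circles) and W2 (squares). Points at the left edge are 0 reads. The 2 Slc11a2 transcripts and the 2 read Ireb2 transcripts are apart by different amounts, and the plotted reads of Ftl1 and Lcn2 lie on transcripts that are not coding.

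The order of levels in unique-region density can be given for coding transcripts that were read. In W1 Fth1-201 (22400) was followed by Hmox1-201 (141), Trf-201 (36.6), Ireb2-201 (14.3), Slc11a2-201 (2.60) and Slc11a2-205 (0.484). In W2 the order was Fth1-201 (18800), Hmox1-201 (709), Trf-201 (26.5), Slc11a2-201 (15.9), Ireb2-201 (5.41), Tfrc-201 (2.91, from 2 reads) and Slc11a2-205 (1.07). Tfrc-201 lies under its floor of 3 reads (4.36), so its place is not set. Slc11a2-201 and Ireb2-201 thus stood in opposite order in the libraries. By TPM Trf-201 (5.26 and 4.72) stood below Ireb2-201 (12.755 and 5.965) in both libraries and below Slc11a2-201 (8.24) in W2. The place of Trf-201 thus depends on the scale. Unique-region density assumes that only reads within unique 50-mers were counted. The 3 and 2 reads of Ftl1-201, which has none, show that this was not always so. Outside the 10 genes, Ftl1-ps1-202, with 71 unique 50-mers, stood at 17900 and 36100 in this density, above Fth1-201 in W2.

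The 10 genes were set among 8 lists of iron and heme genes that hold 60 further genes. Of these 60, 36 were compared: 13 were higher in W1, 10 were higher in W2 and 13 lay within 2-fold. Their median log2 ratio of TPM + 1 was 0.28, against -0.07 for all genes compared. These shares are near those of all genes (34.7% higher in W1 and 32.9% in W2), and the counts of single lists below rest on few genes beside the same background. Of the 36 genes, 6 reached 1 TPM in W1 alone and 5 in W2 alone, so the filter set their direction.

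Of 5 compared uptake genes 3 were 2-fold or more higher in W2, too few to set against the 32.9% of all genes. Beside Slc11a2 the 3 were Steap4, a reductase that turns ferric into ferrous iron, and Slc39a8, a metal importer. Steap4 stood at 21.4 and 96.0 TPM, from 205 and 924 reads, a ratio of 4.48 (3.84 to 5.23), on a single listed transcript. Slc39a8 had 0 reads in W1 and 56 in W2, at least 18.5-fold, and passed the filter through W2 alone. Slc39a14, a related importer, lay within 2-fold, with 358 and 228 reads. Tfr2, the second transferrin receptor, had 0 reads in both libraries.

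In the storage list the iron chaperone gene Pcbp1 lay within 2-fold at 443 and 333 TPM, a ratio of 1.33 toward W1 (1.25 to 1.41). Pcbp2, its relative, held 30 reads and 1 read in W1 and W2, a ratio of 30.2 with a wide interval (5.02 to 1230), and passed the filter through W1 alone. It has 31 listed transcripts, and 37.6% of its 50-mers are in 1 transcript alone. The mitochondrial ferritin gene Ftmt had 0 reads in both.

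The export list went both ways. Hamp, which encodes hepcidin, the hormone that triggers loss of ferroportin, held 96 reads in W1 and 20 in W2 (77.3 and 16.0 TPM), a ratio of 4.83 toward W1 (2.96 to 8.26). It has 1 listed transcript and shares 60 of its 361 50-mers with Hamp2, and the antisense gene Gm44662 overlaps it, so its reads are uncertain. Cp, which encodes the ferroxidase ceruloplasmin, stood at 7.66 and 28.2 TPM, a ratio of 3.77 toward W2 (2.99 to 4.79). Neo1, a co-receptor in hepcidin control, held 0 and 49 reads and passed the filter through W2 alone. Bmp6, a ligand in the same control, stood at 2.94 and 1.82 TPM.

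Of the 3 regulators of iron sensing 2 were 2-fold or more higher in W1 and 1 lay within 2-fold, too few to set against 34.7% of all genes. Fbxl5, the subunit of the ubiquitin ligase that marks iron regulatory proteins for degradation, stood at 124 TPM in W1 and 16.1 TPM in W2, a ratio of 7.76 (6.48 to 9.35). Bst1 overlaps Fbxl5 on the other strand. Ireb2 and Fbxl5 were both higher in W1. Aco1, which encodes the other iron regulatory protein, stood at 9.82 and 11.9 TPM, and its ratio of 1.21 toward W2 had an interval from 0.939 to 1.57.

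Of 10 compared genes of heme breakdown, transport and response 3 were 2-fold or more higher in W1 and 4 in W2, near the shares of all genes (34.7% and 32.9%). Lrp1 and Flvcr2 passed the filter through W2 alone, and Flvcr1 and Abcg2 through W1 alone. Lrp1, a receptor that takes up heme bound to hemopexin, held 2 and 690 reads, a ratio of 343 toward W2 (94.5 to 2840). The heme exporter gene Flvcr1 held 44 reads in W1 and 1 in W2, and the related Flvcr2 held 0 and 43. Abcg2, a transporter that can export porphyrins, held 74 and 0 reads, at least 24.8-fold. The repressor and the activator of Hmox1 transcription were named after their values were seen. Bach1, the repressor, stood at 59.2 and 17.4 TPM, a ratio of 3.70 toward W1 (3.24 to 4.23). Nfe2l2, the activator, stood at 117 and 246 TPM, a ratio of 2.34 toward W2 (2.16 to 2.55). Whether either gene bears on the level of Hmox1 was not tested.

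Of 7 compared heme synthesis genes 2 were 2-fold or more higher in W1 and 3 in W2, also near the shares of all genes. Of these 5, 1 passed the filter through W1 alone and 1 through W2 alone. Fech, ferrochelatase, which inserts the iron, stood at 22.6 and 68.5 TPM on its single listed transcript, a ratio of 3.03 toward W2 (2.50 to 3.69). Ppox stood at 25.4 and 5.72 TPM, a ratio of 4.43 toward W1 (3.45 to 5.75), and B4galt3 overlaps it on the other strand. Urod held 9 and 31 reads, and Cpox held 20 and 48.

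Of 9 compared genes of mitochondrial iron import and iron-sulfur cluster assembly, 5 were 2-fold or more higher in W1 (34.7% of all genes were), 4 lay within 2-fold and 0 were 2-fold or more higher in W2 (32.9% of all genes were). The median log2 ratio was 1.52, against -0.07 for all genes compared. Of the 5 genes, 2 passed the filter through W1 alone, so their direction was set by it and they raise both the count and the median. Iscu, the scaffold on which clusters are built, held 57 reads in W1 and 2 in W2. Isca1 stood at 8.10 and 1.93 TPM and Lyrm4 at 13.1 and 3.93 TPM.

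**Figure D5:**
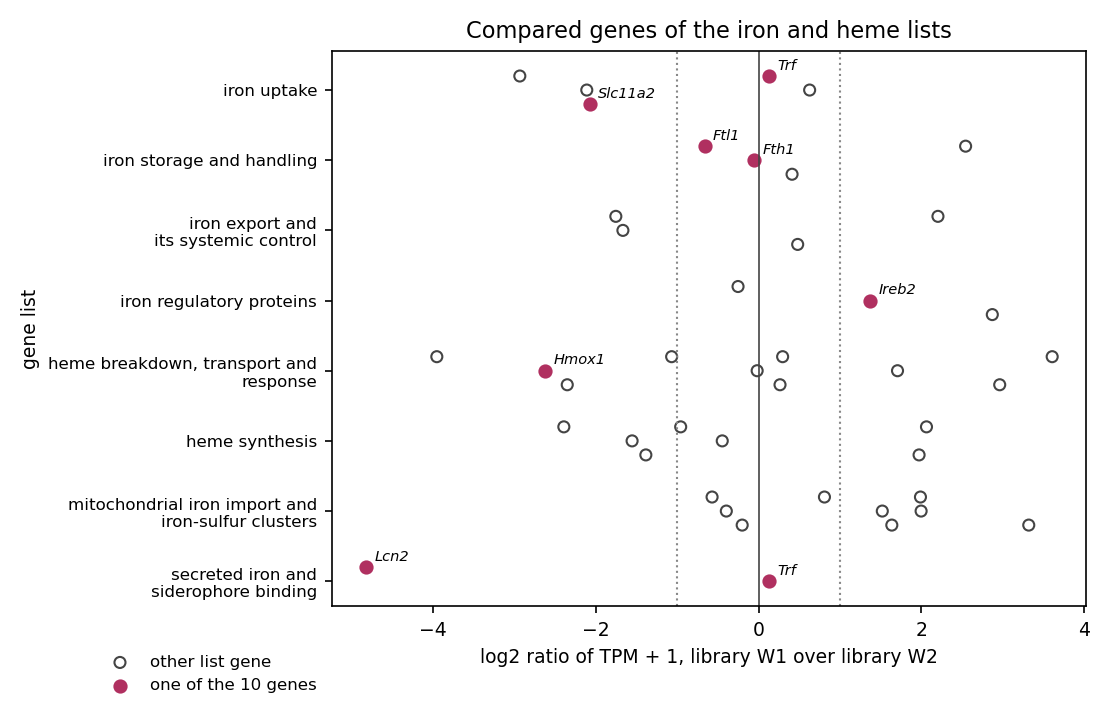
Log2 ratio of TPM + 1, W1 over W2, for each compared gene of the 8 lists. Filled points are compared genes among the 10 (Trf is on 2 lists), open points are other list genes, and dotted lines mark 2-fold. The uptake genes that pass 2-fold lie left, and those of mitochondrial iron and iron-sulfur clusters lie right. Single lists hold few genes, and 67.6% of all compared genes are 2-fold or more apart.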

How the data were processed

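Bowtie 0.12.2 is named, and mm8 and GRCm38 are builds with no stated role, per the submitters' processing notes. For the counting tool, annotation and use of strand, no statement is given in the sources used here. The tables deposited by the authors give TPM and FPKM per Ensembl transcript, and 0 other value columns were present. Of 137767 identifiers 137654 matched GENCODE M21, which may not be the authors' annotation. Values were summed per gene. FPKM times length fell on whole reads, within 0.1 read, for 98.41% and 97.95% of transcripts above 0 in W1 and W2, which gave the read counts. The labels name no molecular identifiers, so intervals and the floor of 3 reads cover counting error only. The scripts were tested on simulated data. Promoter sequences were not used.

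The 10 genes and all lists were chosen with earlier results of these data known. Named besides the 10 were the 4 list genes of each list with the largest log2 ratio among those at 1 TPM and 20 reads or more, and Ftmt, Tfr2, Hmox2 and Aco1. Bach1 and Nfe2l2 fall outside this rule, as do the ferritin copies and markers. A result that this rule names is not reported here. Hjv was read as Hfe2 through RefSeq synonyms. Alternatives were other pseudocounts, filters, scalings and transcript choices. Calculations used Python 3.11.15, numpy 2.4.6, scipy 1.17.1, pandas 2.3.3, Biopython 1.88 and matplotlib 3.10.9.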

Additional observations from a re-analysis of the deposited data

How the results depend on the processing

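Hmox1 and Slc11a2 passed 2-fold toward W2 in all 10 settings, with log2 ratios of -2.91 to -2.32 and -2.62 to -1.14. The 10 include the main setting. A change of filter cannot change a gene's ratio. A choice of transcripts cannot change it for Hmox1, Fth1 and Trf, read on 1 transcript each. Such settings add no support. Lcn2 was past 2-fold in 9 of 10 and stood at 0 reads with coding transcripts alone. Fth1 and Trf lay within 2-fold in all 10, at -0.35 to 0.25 and -0.12 to 0.38. Ftl1 ranged from -1.15 to 0.27. It was past 2-fold only when summed with its copies, a setting that was run on TPM alone. It was toward W1 only with coding transcripts alone (0.27), which held few reads. Ireb2 was past 2-fold in 8 of 10. The number of the 10 genes higher in W1 fell from 1 to 0 with the transcript of highest mean TPM or coding transcripts alone. Both settings leave out the retained-intron transcript. Ireb2 then stood at 0.98 on TPM + 1, while the ratio of reads of Ireb2-201, without the added 1, was 2.14. Coding transcripts alone and the sum of Ftl1 with its copies were added after the data were seen. Over all genes, 2112 were higher in W1 and 2509 in W2 with a pseudocount of 5 TPM, and 2664 were higher in W1 with at least 20 reads. The median log2 ratio of compared genes, -0.07, was 0.23 on FPKM and -0.31 after leaving out genes of mitochondrial DNA and of ribosomal proteins. No paired analysis was possible because the libraries are 1 of each and share no replicate label.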
